A study of Mus musculus with 6 samples.

Results

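The interferon response genes Stat2, Irf1, Irf7, Ifit1, Ifit3, Isg15, Bst2, Ifitm2 and Ifitm3 were followed in tumor-initiating cells (TICs) of mouse mammary cancer and in a comparison group from tumors of the same mouse model. They were chosen by gene symbol, through the Ensembl identifier of each row of the count files, and all 9 symbols were found among the 41388 genes counted. Bulk RNA-seq was done on 6 libraries, 3 per group, sorted from primary mammary tumors of 12-week-old female mice of the strain FVB/N-TgN(MMTVPyVT)634Mul/J. In these mice the mammary tumor virus promoter (MMTV) drives the polyoma middle T oncogene (PyMT) in the mammary epithelium, and both groups came from this background without further treatment. TICs were sorted as CD24+CD90+ cells and the comparison group (non-CD24+CD90+), here called the other tumor cells, as cells lacking one or both of these surface markers. Both sorts left out dead cells and cells with CD45, the surface antigen shared by leukocytes. Each library came from a pool of 4 mice, so differences between single animals were not seen. In such bulk samples, fewer cells of a type and less RNA per cell cannot be told apart.

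Interferons are secreted proteins by which cells signal infection or damage to each other. Type I interferons bind a receptor of the chains IFNAR1 and IFNAR2, the kinases JAK1 and TYK2 then act on STAT2, and a complex of STAT2 with IRF9 binds the interferon-stimulated response element (ISRE) in promoters. Interferon gamma acts through IFNGR1 and IFNGR2, and its response element in promoters is the gamma-activated sequence (GAS). Many cells keep a low level of this program on at rest, and it is known for its part in antigen presentation and in the response of tumors to immune attack. Among the 9 genes, Stat2 encodes a transducer and Irf1 and Irf7 encode transcription factors. Ifit1 and Ifit3 encode cytosolic proteins that bind viral RNA or its partners, Isg15 a ubiquitin-like modifier, Bst2 the protein tetherin that holds budding virions on the cell surface, and Ifitm2 and Ifitm3 membrane proteins that block virus entry.

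Total counts were between 6781239 and 8450038 in the 3 libraries of the other tumor cells and between 8114933 and 9100552 in the 3 of TICs. Levels are given as CPM, the counts of a gene relative to the library total, with TMM normalization, and 3 counts, taken as the floor, equalled 0.33 to 0.442 CPM. Genes for which the other libraries of a group predicted 20 to 60 counts had none in 19.7% to 37.7% of cases per library, so that single libraries missed genes well above this floor. TIC library 3 stood farthest from the rest, with a mean root-mean-square log2 difference of 2.14 to the other 5 libraries, against 1.74 to 1.95 for those.

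The promoters of the 9 genes were searched because the members are best known as ISRE or GAS targets. RefSeq promoter windows on GRCm38.p6, which run from 250 bases before to 50 bases after the transcription start, were matched for 9 of 9 symbols, with 2 windows for Irf1. The ISRE core, searched on both strands as GAAA, any 2 bases and GAAA, was present in 7 of the 9 genes and in 3.44% of all 32851 windows. The GAS, searched as TTCNNNGAA, which reads the same on both strands, was present in 3 of the 9 genes and in 8.3% of all windows. Irf7 had neither and Irf1 had only the GAS, and in Bst2 the GAS match overlapped the ISRE match. The matches of Ifitm3 lay after the start site. These windows carry the upstream matches, printed 5′ to 3′ on the strand of the gene, with the matched bases in capitals (ISRE core, and for Irf1 the GAS); some read as the reverse complement of the searched letters.
Stat2, chr10:128270261-128270300, plus strand: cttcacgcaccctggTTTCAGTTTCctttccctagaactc
Irf1, chr11:53769909-53769947, plus strand: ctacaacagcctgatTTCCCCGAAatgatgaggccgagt
Ifit1, chr19:34640770-34640828, plus strand: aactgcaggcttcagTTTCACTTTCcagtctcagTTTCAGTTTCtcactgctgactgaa
Ifit3, chr19:34583358-34583431, plus strand: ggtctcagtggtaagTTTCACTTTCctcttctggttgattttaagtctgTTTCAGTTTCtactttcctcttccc
Isg15, chr4:156200860-156200911, minus strand: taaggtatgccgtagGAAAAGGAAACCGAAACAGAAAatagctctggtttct
Bst2, chr8:71537572-71537617, minus strand: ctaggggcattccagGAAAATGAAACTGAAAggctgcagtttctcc
Ifitm2, chr7:140955983-140956022, minus strand: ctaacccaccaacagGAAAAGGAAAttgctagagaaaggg

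Ifit1 and Ifit3 each held 2 separate matches to the ISRE core, Isg15 held 3 overlapping ones, and Bst2 held 2 overlapping ones. Stat2 and Ifitm2 held a single match, 222 to 213 bases upstream in Stat2 and 46 to 37 bases upstream in Ifitm2. The GAS of Irf1 lay 90 to 82 bases upstream of its start. A match is a description of these letters and not evidence of binding in these cells.

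**Figure D1:**
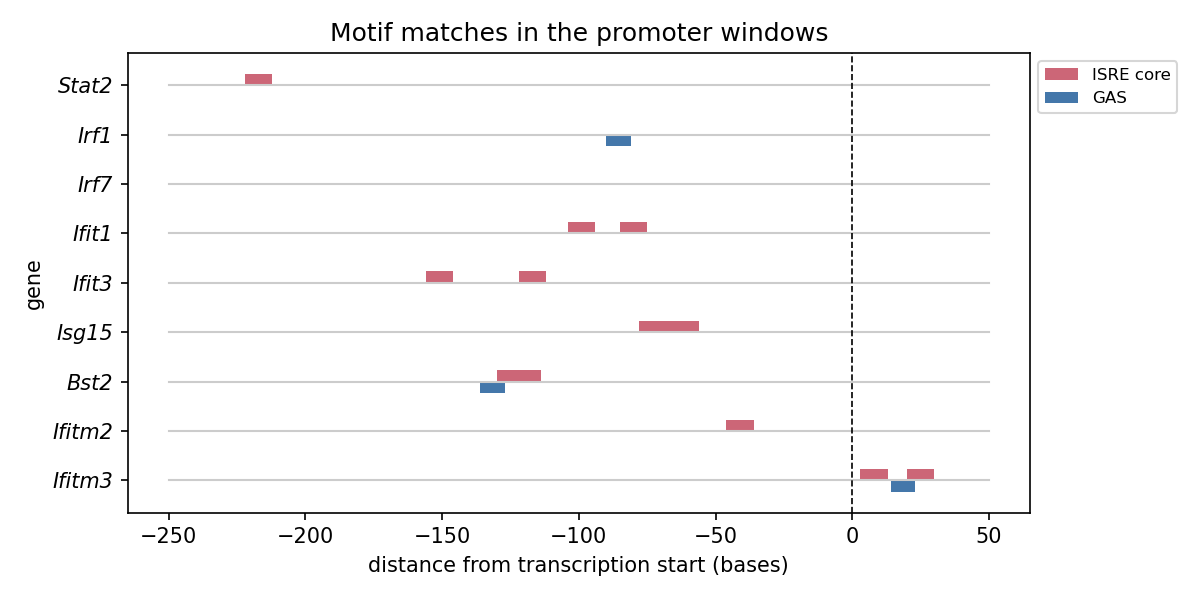
Positions of the ISRE core (red) and the GAS (blue) in the promoter windows of the 9 genes, in bases from the transcription start (dashed line). The 2 windows of Irf1 are drawn on 1 line, and the second held no match. Matches lie upstream in 7 genes, after the start in Ifitm3, and there is none in Irf7.

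All 9 genes were detected in these sorted cells, and none of the 9 was called different between the groups. Across all 12192 genes tested with edgeR's exact test, 1.55% were called at an adjusted p below 0.1, of which 1.36% of the genes tested were higher and 0.189% lower in TICs. Among the 9 members 0 were called, 0 had an unadjusted p below 0.05, and 0 were called by the quasi-likelihood test of edgeR (0.41% of all genes) or by DESeq2 (2.51%). The 3 TIC values lay above or below all 3 values of the other tumor cells in 0 of the 9, against 7.69% (above) and 7.55% (below) of all genes tested. The log2 fold change (TICs minus the other tumor cells) was positive in 4 members and negative in 5, against 49.7% positive over all genes tested, and its median was -0.001 against -0.006. A count of 0 called among 9 genes is near the background share.

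Per kilobase of exon, so that genes of different length can be compared, Ifitm3 had the highest level, with a mean of 408 CPM per kb over the 6 libraries and a range of 243 to 636. Isg15 followed with a mean of 87.6 CPM per kb (38.4 to 150), a range that does not reach that of Ifitm3. Below it came Ifitm2 at 45.4, Ifit1 at 35.1, Irf1 at 23.7, Bst2 at 17.3, Irf7 at 8.34, Ifit3 at 8.12 and Stat2 at 3.78 CPM per kb. From Isg15 down, each gene's range over the libraries overlapped that of its neighbor in this order.

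**Figure D2:**
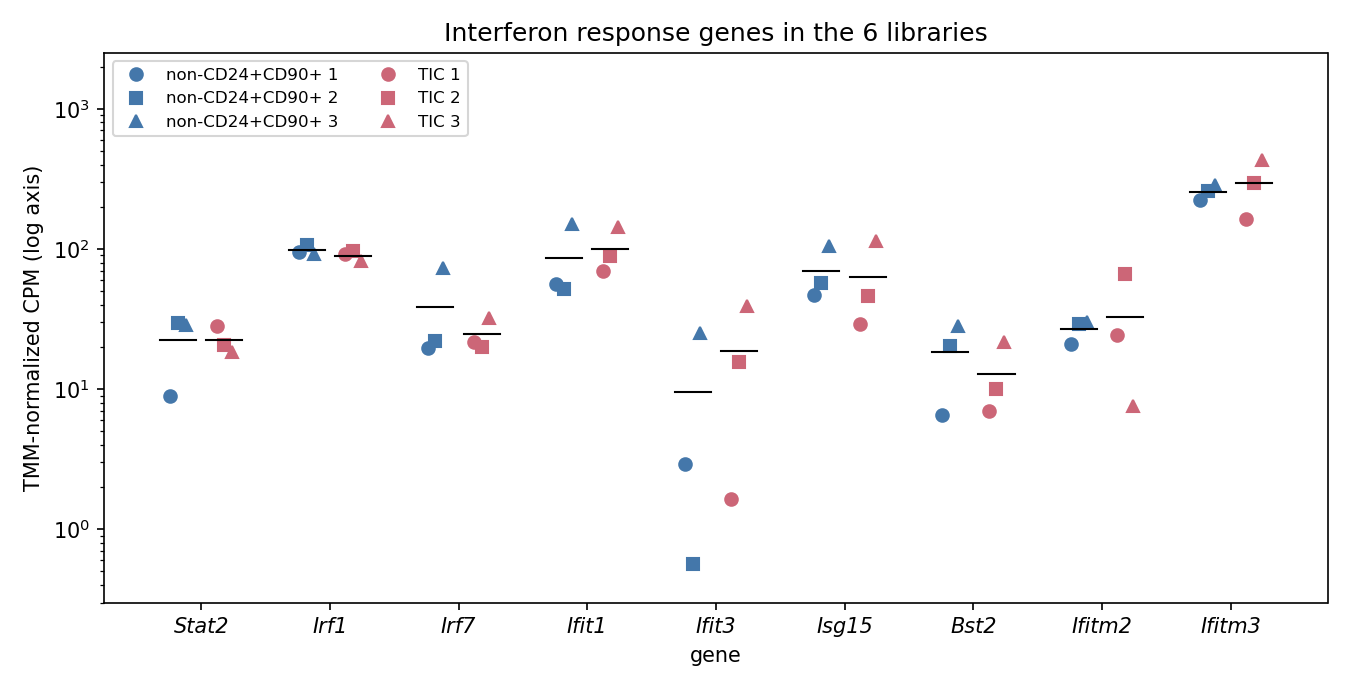
TMM-normalized CPM of the 9 genes on a log axis, 1 point per library (blue, the other tumor cells; red, TICs; the marker shape gives the library number) and a line at each group mean. The groups overlap in every gene, Irf1 is the tightest and Ifit3 spans from 0.567 to 39.1 CPM.

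Stat2 (ENSMUSG00000040033, chr10:128270559-128292849, plus strand) encodes the transducer that is particular to type I and type III interferon signaling. It measured 8.90, 29.7 and 28.6 CPM in libraries 1, 2 and 3 of the other tumor cells and 28.3, 20.6 and 18.3 CPM in those of TICs. The lowest and the highest value both belonged to the other tumor cells, with all TICs between them. The mean CPM was 22.4 ± 11.7 (SD, n = 3) against 22.4 ± 5.19 (SD, n = 3) in TICs, a log2 difference of -0.0007 with a 95% interval from -1.43 to 1.43 (adjusted p = 1). The equal means thus left room for a change in either direction.

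Irf1 (ENSMUSG00000018899, chr11:53770014-53778374, plus strand) encodes a transcription factor induced foremost by interferon gamma. Its levels were 95.4, 107 and 92.6 CPM in the other tumor cells and 91.9, 96.0 and 81.5 CPM in TICs. It was the steadiest member, its highest library exceeding the lowest 1.31-fold, and the groups overlapped. The estimated log2 fold change was -0.13 (SE 0.33, 95% interval -0.78 to 0.52, adjusted p = 1). Irf1 shares 135 exon bases with Gm17334 on the opposite strand, and whether the counting used strand is not given in the sources used here.

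Irf7 (ENSMUSG00000025498, chr7:141262706-141266481, minus strand) encodes the factor that amplifies type I interferon production and is itself induced by interferon. It stood at 19.7, 22.01 and 73.4 CPM in the other tumor cells and at 21.7, 20.1 and 32.2 CPM in TICs. Library 3 of the other tumor cells was far above the rest, the other 5 lying between 19.7 and 32.2 CPM. Between the groups the log2 fold change was -0.64 (SE 0.65, 95% interval -1.91 to 0.63, adjusted p = 1), and without that library it was 0.24. Irf7 overlaps 45 exon bases of Phrf1 on the opposite strand.

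Ifit1 (ENSMUSG00000034459, chr19:34640871-34650009, plus strand), whose protein binds viral RNA that lacks the cap methylation of the host, measured 55.9, 51.6 and 151 CPM in the other tumor cells and 69.7, 88.4 and 144 CPM in TICs. Library 3 was the highest of each group, and the groups overlapped through library 3 of the other tumor cells. The log2 fold change was 0.22 (SE 0.46, 95% interval -0.67 to 1.12, adjusted p = 1). Without library 3 of the other tumor cells it was 0.90, the highest of the fits with 1 library left out, and the call did not change.

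Ifit3 (ENSMUSG00000074896, chr19:34583531-34588731, plus strand) encodes a partner that stabilizes IFIT1 on RNA. It varied most of the 9 genes, with 20, 5 and 176 raw counts in the other tumor cells and 15, 134 and 296 in TICs. In normalized terms these were 2.92, 0.567 and 25.2 CPM against 1.65, 15.6 and 39.1 CPM. The highest library exceeded the lowest 68.8-fold, and each group held libraries near the bottom and near the top. For Ifit3 the log2 fold change was 0.97 (SE 1.27, 95% interval -1.51 to 3.46, adjusted p = 1), and it went from -0.13 without TIC library 3 to 3.42 without library 3 of the other tumor cells. Of the stretches of 50 bases in its transcripts, 51.2% also occur in Ifit3b, and since reads that aligned to several places were discarded before counting, the level of Ifit3 is uncertain. Ifit3b itself had 12, 15 and 18 counts in the other tumor cells and 0, 107 and 181 in TICs (log2 fold change 2.58, SE 1.62, adjusted p = 0.918).

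Isg15 (ENSMUSG00000035692, chr4:156199424-156200818, minus strand), which is conjugated to proteins during the interferon response, measured 46.7, 57.5 and 105 CPM in the other tumor cells and 29.0, 46.5 and 113 CPM in TICs. TICs held both the lowest and the highest library, and library 3 was again the highest of each group. Between TICs and the other cells, the log2 fold change of Isg15 was -0.15 (SE 0.52, 95% interval -1.17 to 0.87, adjusted p = 1). Bst2 (ENSMUSG00000046718, chr8:71534255-71537456, minus strand) measured 6.57, 20.4 and 28.0 CPM in the other tumor cells and 6.92, 10.03 and 21.6 CPM in TICs. Its low libraries were library 1 of each group, and the groups overlapped over most of their range. For Bst2 the log2 fold change was -0.51 (SE 0.92, 95% interval -2.32 to 1.30, adjusted p = 1).

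Ifitm2 (ENSMUSG00000060591, chr7:140954837-140955987, minus strand), whose protein acts in late endosomes, measured 21.0, 29.1 and 30.3 CPM in the other tumor cells and 24.5, 65.9 and 7.52 CPM in TICs. The TICs spread on both sides of the narrow range of the other tumor cells, with 8.76-fold between their highest and lowest library against 1.44-fold. The log2 fold change was 0.28 (SE 0.72, 95% interval -1.13 to 1.70, adjusted p = 1), and leaving out TIC library 2 made it -0.74 while leaving out TIC library 3 made it 0.77. Of its stretches of 50 bases, 48.5% are found in other transcripts, largely Gm45717 (219 of the 294 shared), and in pseudogenes. Gm45717 is annotated over the same locus and was not among the genes counted, so sharing with it does not make reads align to several places. Stretches shared with other transcripts, such as 90 with Gm11951 and 75 with Gm8865, leave the level of Ifitm2 uncertain.

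Ifitm3 (ENSMUSG00000025492, chr7:141009586-141010770, minus strand), which encodes the endosomal restriction factor known from influenza, measured 222, 259 and 287 CPM in the other tumor cells and 164, 295 and 431 CPM in TICs. As for Ifitm2, the TICs held both the lowest and the highest library, with 2.62-fold between them against 1.29-fold in the other tumor cells. Whether the spread differs between the groups was not tested. The means were 256 ± 32.7 CPM (SD, n = 3) and 297 ± 133 CPM (SD, n = 3), and the log2 fold change was 0.21 (SE 0.35, 95% interval -0.47 to 0.90, adjusted p = 1). The interval of Ifitm3 and that of Irf1 were the narrowest of the 9, and both leave out a 2-fold difference in either direction.

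**Figure D3:**
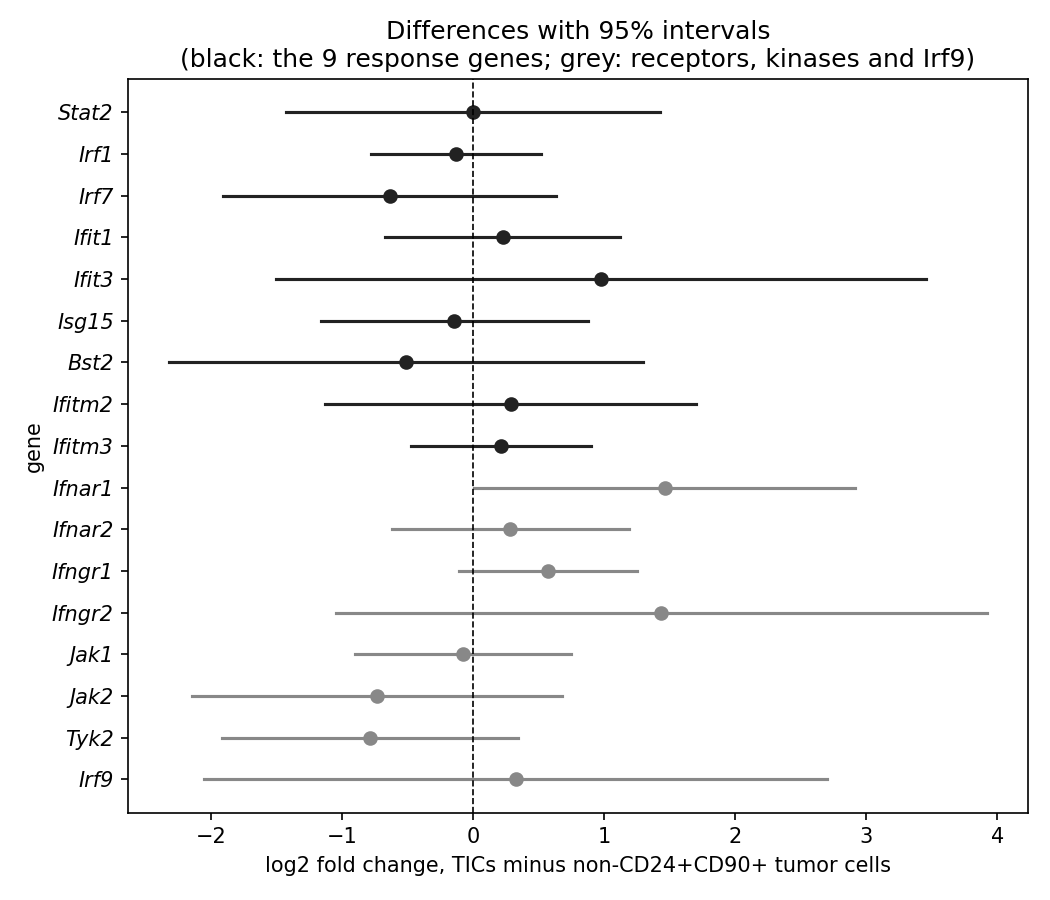
Log2 fold change of TICs minus the other tumor cells for the 9 genes (black) and for interferon receptor chains, kinases and Irf9 (grey). Points are estimates from 3 against 3 libraries, bars are 95% intervals, and the dashed line marks no difference. All 9 black intervals cross 0, and that of Ifit3 is the widest of them, from -1.51 to 3.46.

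In each of the 9 members, the ratio between the highest and the lowest library of at least 1 group exceeded the ratio between the group means. Summed over the 9 genes, libraries 1, 2 and 3 held 479, 577 and 821 CPM in the other tumor cells and 438, 659 and 888 CPM in TICs. Library 3 of each group was the highest and library 1 the lowest, so that the sums of the groups interleaved. In 5 of the 9 genes, Irf7, Ifit1, Ifit3, Isg15 and Bst2, the highest pair of libraries was library 3 of the other tumor cells and library 3 of TICs. The same held for 5.89% of all genes tested and, in the rest of the interferon pathway, for 7 of 94 genes (7.45%). Those 7 were Ptpn6, Ptpn11, Irf2bp2, Trim30a, Irgm1, Cxcl10 and Psmb9. This pattern was noticed in the values and then counted, so it is a description. The library numbers were given here in the order of the labels within each group, so they are names only, and nothing in the labels links library 3 of one group to library 3 of the other. Stat2, Irf1, Ifitm2 and Ifitm3 did not follow it, and Irf1 and Ifitm2 were lowest in TIC library 3.

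**Figure D4:**
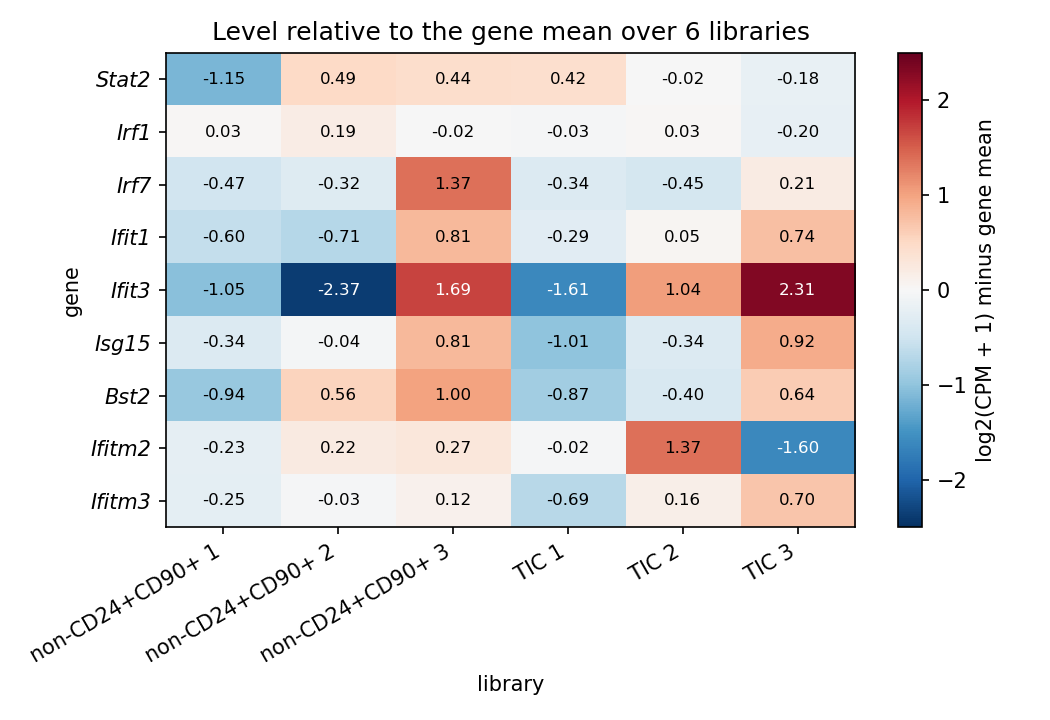
Level of each gene in each library as log2(CPM + 1) minus the mean of that gene over the 6 libraries (red above, blue below, values printed). Irf7, Ifit1, Ifit3, Isg15 and Bst2 are red in library 3 of both groups, from 0.21 for Irf7 to 2.31 for Ifit3 in TIC library 3, while the row of Irf1 stays within 0.20 of its mean.

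Markers of other cells moved with the groups and with single libraries. Summed fibroblast markers were at 2790 to 3180 CPM in the other tumor cells and 7466 to 10830 CPM in TICs, with 5 of 8 called higher, and pericyte or smooth muscle markers at 477 to 650 against 836 to 1284 CPM, with 1 of 8 called. Luminal epithelial markers were abundant in both groups, at 5719 to 6026 against 3780 to 4364 CPM, with 0 of 8 called by the exact test and 2 of 8 lower at an unadjusted p below 0.05. Summed endothelial markers were at 160 to 179 CPM in the other tumor cells and at 212, 306 and 705 CPM in TICs, with 0 of 9 called by the exact test and 4 of 9 higher at an unadjusted p below 0.05, so that TIC library 3, high in 5 of the interferon genes, was also the highest in these. Library 3 of the other tumor cells, high in the same 5 genes, was at 165 CPM in these endothelial markers. Basal epithelial markers summed to 797, 860 and 1322 CPM in libraries 1, 2 and 3 of the other tumor cells and 776, 638 and 1034 CPM in TICs. Library 3 of each group thus formed the highest pair in this sum, but different genes carried it. Krt14 was at 723 CPM in library 3 of the other tumor cells and lowest in TIC library 3, at 215 CPM, where Mylk was at 561 CPM. Krt5 and Oxtr were highest in library 3 of both groups, while Trp63 and Krt17 were highest in TIC library 1. Of the 6 genes, 0 were called by the exact test. Leukocyte markers summed to 17.4 to 41.1 against 20.5 to 90.9 CPM, only 5 of 12 passed the filter, and Ptprc, which encodes CD45, had counts in 1 library of the other tumor cells (4.82 CPM) and none in the other 5. Fcer1g, Adgre1 and Cd3e had no count in any library. Laptm5 had 0, 56 and 96 counts in the other tumor cells and 405, 144 and 106 in TICs, so that all TICs were above. Cd68 had 76, 155 and 26 counts against 151, 46 and 31 in TICs. Of the 5 leukocyte markers tested, 2 had a positive and 3 a negative log2 fold change, and 0 were called by the exact test. The part of other cells in the levels of the 9 genes was not tested.

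A wider list of 154 further interferon genes, ordered by role, gave the background of the pathway. Of these 151 were in the count table, 94 passed the filter, and 32 had no count in any library, including all 20 genes of the interferon ligands. Among the 94 tested, 0 were called by the exact test of edgeR, 0 by its quasi-likelihood test and 0 by DESeq2. At an unadjusted p below 0.05, 1 was higher in TICs (1.06%) and 3 were lower (3.19%), against 4.74% and 3.11% of all genes tested. The groups did not overlap in 6 genes that were above (6.38%) and 4 that were below (4.26%) in TICs, against the 7.69% and 7.55% given above. Signs were split, with 46 positive and 48 negative log2 fold changes, with a median of -0.07. The share of the list was thus under that of all genes in 3 of these 4 counts and near it in the other. Each count rests on few genes, and the gaps were not tested.

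All 6 receptor chains were expressed, with a median log2 fold change of 0.43. Ifnar1, the first chain of the type I receptor, had 58, 111 and 86 counts in the other tumor cells and 167, 221 and 363 in TICs, so that all TICs were above. Its log2 fold change of 1.46 (SE 0.74) did not pass the test (adjusted p = 0.672). The second chain, Ifnar2, overlapped between the groups with a log2 fold change of 0.28 (SE 0.46, adjusted p = 1). For the interferon gamma receptor, Ifngr1 had a mean of 119 ± 32.2 CPM against 177 ± 54.6 CPM in TICs (SD, n = 3 each; log2 fold change 0.57, SE 0.35, adjusted p = 0.84). Ifngr2 was unsteady, with 106, 0 and 41 counts against 176, 217 and 99 (log2 fold change 1.44, SE 1.27, adjusted p = 0.999).

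Among the transducers, the kinases were at -0.08 (Jak1, SE 0.42), -0.74 (Jak2, SE 0.72) and -0.79 (Tyk2, SE 0.58) on the log2 scale, none of them called. Irf9, the DNA-binding partner of STAT2, ranged from 5 counts in library 1 of the other tumor cells to 247 in TIC library 1, with each group spread over most of that range (log2 fold change 0.32, SE 1.21, adjusted p = 1).

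The 10 nucleic acid sensors and adaptors tested had a median of -0.36. Ifih1, which encodes the RNA sensor MDA5, had 191, 226 and 135 counts in the other tumor cells and 21, 73 and 30 in TICs. All TICs were below, at 4.92-fold lower mean CPM, yet with a log2 fold change of -2.30 (SE 0.93) the gene was not called (adjusted p = 0.424). Tmem173, the adaptor STING, was at 0.04 (SE 0.53).

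The 10 negative regulators tested had a median of -0.14, and the most abundant per length, the phosphatase gene Ptpn1, was at -0.41 (SE 0.35). Of 44 antiviral and ISG15-pathway effectors tested, 17 were positive and 27 negative, with a median of -0.28. Ly6e, the most abundant of them per length, had means of 646 ± 92.9 CPM in the other tumor cells and 576 ± 70.5 CPM in TICs (SD, n = 3 each; log2 fold change -0.17, SE 0.28). Ifi203, a nuclear DNA-binding protein of the p200 family, was above in all TICs, with 29, 32 and 0 counts against 41, 143 and 273 (log2 fold change 2.85, SE 1.33, adjusted p = 0.658). Parp14, an ADP-ribosyltransferase, was likewise above in all TICs at 1.01 (SE 0.63, adjusted p = 0.868). Slfn5 and Dtx3l were named after their values were seen, for an unadjusted p below 0.05, which Ifih1 also had. Slfn5 was at 1.71 (SE 0.70, adjusted p = 0.407) with overlapping groups, and Dtx3l, a ubiquitin ligase that pairs with PARP9, at -0.92 (SE 0.39, adjusted p = 0.418) with all TICs below.

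The 14 tested genes typical of the interferon gamma response were GTPases, chemokines, the immunoproteasome genes Psmb8, Psmb9 and Psmb10, and Nlrc5. They had a median log2 fold change of 0.53, with 10 positive and 4 negative. Of them 0 were called by the exact test of edgeR and 0 had an unadjusted p below 0.05. The most abundant of them per length, Psmb10 of the immunoproteasome, had means of 102 ± 36.0 CPM and 97.9 ± 24.3 CPM in TICs (SD, n = 3 each), a log2 fold change of -0.06 (SE 0.37). Cxcl10, a chemokine that draws T cells, was detected in library 3 of the other tumor cells with 27 counts and in TIC libraries 2 and 3 with 26 and 86, and had none in the other 3.

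**Figure D5:**
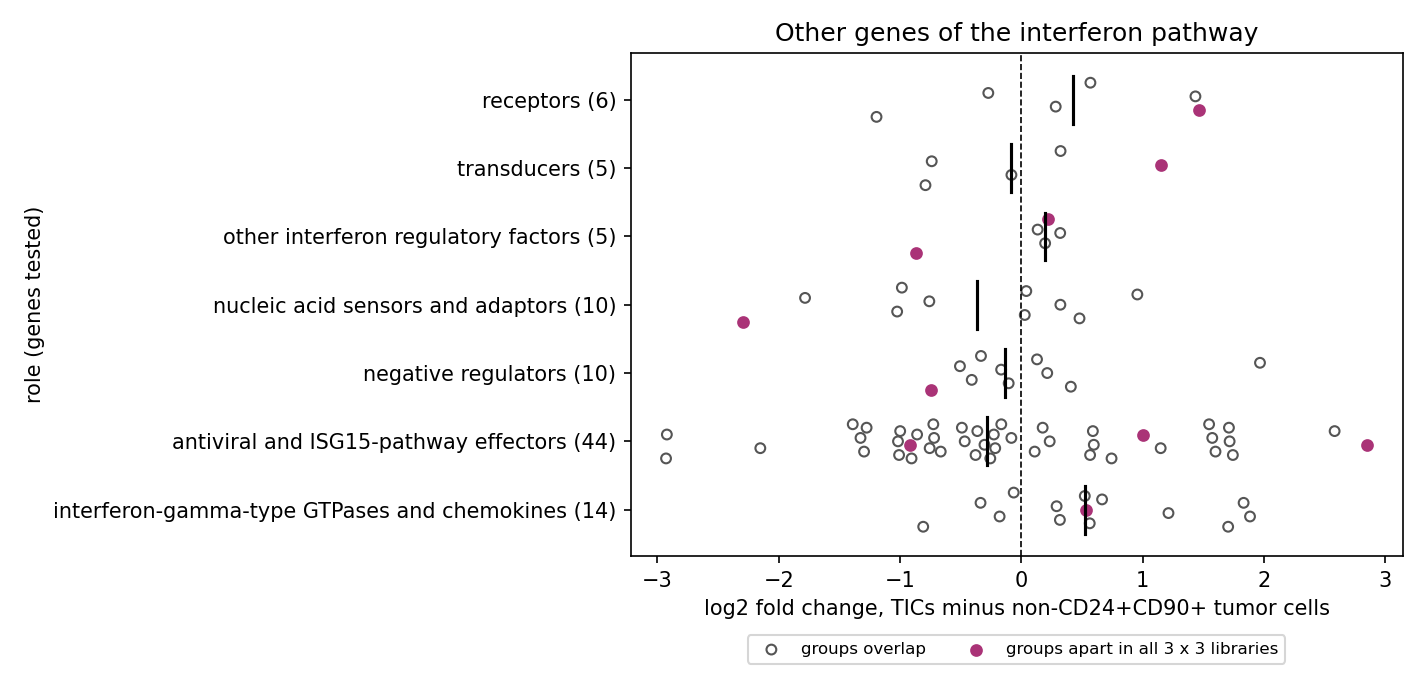
Log2 fold change of TICs minus the other tumor cells for the 94 tested genes of the wider interferon list, 1 point per gene, by role (number tested in brackets). Filled points mark the 10 genes whose 3 TIC libraries lay all above or all below the other 3, black bars mark medians, and points of each role lie on both sides of 0.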

How the data were processed

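RNA-seq was done on 3 pools per group, TICs and other tumor cells, each of 4 cell sorts, with 120 ng of total RNA per library. The authors kept samples with sufficient RNA integrity, trimmed reads (Trimmomatic 0.32), aligned them to GRCm38 (STAR 2.4.0, SAMtools 1.1), dropped reads with more than 1 alignment and used HTSeq for gene counts. What was deposited are raw counts per Ensembl gene, without normalization. The HTSeq version, the annotation release and the strand setting are not given in the sources used here.

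The members and gene lists were chosen with earlier results of these data known. Symbols and coordinates came from GENCODE M21 on GRCm38 (a symbol for 40254 of 41388 identifiers, with 0.171% of counts outside them). The filter asked for over 1 CPM in 3 or more libraries and passed 12192 genes. Groups were compared with exactTest of edgeR 4.0.16 in R 4.3.3 (TMM factors, common dispersion 0.678, tagwise dispersions), following the study's methods, and p-values were adjusted over all tested genes by the Benjamini-Hochberg method with a threshold of 0.1. Standard errors came from the negative binomial fit, and 95% intervals are normal approximations from them. The log2 scale of the heatmap used a pseudocount of 1. The quasi-likelihood test, DESeq2 1.42.0, other scalings and filters, trended dispersions, a threshold of 0.05 and fits with 1 library left out were alternatives. On simulated counts for this comparison over 12192 genes, with 200 genes changed 4-fold, 69% of the changed genes were recovered by exactTest, with a false share of 21.6% among the calls. The changed genes were drawn only from genes above a mean level that Bst2 and Ifit3 did not reach. The recovered share therefore does not cover genes as low as these. Beside the 9 members, genes were named by rule: receptors and transducers, the most abundant gene per length of each role, and genes of the wider list whose groups did not overlap with an absolute log2 fold change of at least 1. Some genes this rule selects are not reported here. Shared sequence was counted over transcript stretches of 50 and 100 bases. Values named for a group cover the spread between these pools, and the depth floor covers counting error only.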

Additional observations from a re-analysis of the deposited data

How the results depend on the processing

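None of the 9 members was called in any of the 9 alternative settings that used all 6 libraries or in the 6 fits that left out 1 library. Among these settings, the threshold of 0.05 used the p-values of the main fit and so could not add a call. In the wider list 1 of 94 genes tested was called with trended dispersions, a setting that called 231 of all 12192 genes. This gene was Slfn5 (log2 fold change 1.71, adjusted p = 0.0484, the range over the 9 alternative settings being 0.0484 to 0.632). The list had 0 genes called in the other 8 settings and in the 6 fits. The count of all genes called, 189, was 50 with the quasi-likelihood test, 306 with DESeq2, 112 without the filter and 116 at an adjusted p below 0.05, and ranged from 64 (without library 3 of the other tumor cells) to 292 (without TIC library 1). The log2 fold change of Stat2 turned to 0.021 with DESeq2, 0.021 with RLE factors and 0.009 without the filter, and that of Tmem173 to -0.012 with library size alone. Leaving out 1 library turned the sign of 7 of the 9 members, and the cause was not tested. The ranges were -0.37 to 0.26 for Stat2, -0.95 to 0.24 for Irf7, -0.11 to 0.90 for Ifit1, -0.13 to 3.42 for Ifit3, -0.86 to 0.27 for Isg15, -0.74 to 0.77 for Ifitm2 and -0.14 to 0.51 for Ifitm3, while Irf1 (-0.18 to -0.05) and Bst2 (-1.10 to -0.07) kept theirs. Among the pathway genes, the ranges that crossed 0 were -0.10 to 0.585 for Ifnar2, -0.46 to 0.26 for Jak1, -0.72 to 1.12 for Irf9, -0.28 to 0.26 for Psmb10 and -0.28 to 0.38 for Tmem173. The count of 5 members highest in library 3 of both groups was 5 under each of the 3 other scalings, which were added after the data were seen. No paired analysis was possible because the labels number the samples 1 to 6 across both groups. The library numbers 1 to 3 used here follow that order within each group and pair nothing. The mouse total in the paper's legend on RNA quality is enough for the pools of 1 group. Whether that total covers both groups is not stated. The 2 groups may therefore share mice, while the exact test took them as independent. Which pools would share mice is not given in the sources used here. Of the 9 members, the 95% interval reached past a 2-fold change in both directions in 4 (Stat2, Ifit3, Bst2 and Ifitm2), in 1 direction in 3 (Irf7, Ifit1 and Isg15) and in neither in 2 (Irf1 and Ifitm3).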

Other observations

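In the wider interferon list, 6 of the 119 genes with any count had at least 20 counts in exactly 1 library and none in the other 5, against 785 of 17168 genes with any count. The share in the list was thus near that of all genes. Mx1, an antiviral GTPase, had 43 counts in library 2 of the other tumor cells, and Oas3, which senses double-stranded RNA, had 46 in library 3 of the same group. Gbp8 had 49 counts in that library 3 as well. Cxcl11, a chemokine, had 189 counts and Ifit1bl1 82 counts in TIC library 2, and Ifitm6 had 31 in TIC library 1. Such genes occurred in both groups, and none of the 6 passed the filter for the comparison.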
